A study of Mus musculus with 8 samples.

Results

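Histone genes were followed in the RNA of splenic B cells that lack the transcription factor Irf4 and of wild-type B cells. The set holds every gene with a probe set of its own whose symbol, current or older, begins with a histone family name, such as Hist1h, Hist2h, H2af, H3f3, H1f, H2ac, H2bc, H3c or Macroh2a. The major histocompatibility genes, whose symbols also begin with H2, were left out. The rule found 23 of the 18194 genes with a single-gene probe set, and each was read from its brightest probe set over the 8 arrays. Of the 23, 7 lie in the large histone cluster on chromosome 13, the chromosome that also carries Irf4: H1f2, H1f4, H1f6, H2bc22, H3c4, H3c7 and H3c11. Another 4, H2ac19, H2aw, H2bc18 and H2bc21, belong to the smaller clusters of replication-dependent genes. The remaining 12 are replacement and linker variants: H1f7, H1f8, H1f10, H2aj, H2ax, H2az1, H2az2, H3f3a, H3f3b, Macroh2a1, Macroh2a2 and Macroh2a3, which the RefSeq table lists as a transcribed pseudogene.

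Histones are the proteins around which DNA is wound. H2A, H2B, H3 and H4 form the core of the nucleosome, and linker histones of the H1 family bind where DNA enters and leaves it. The replication-dependent genes lie in clusters, have no introns and are expressed in S phase, and their mRNAs end in a stem-loop bound by the protein Slbp instead of a poly(A) tail. Replacement variants such as H3.3, H2A.Z and macroH2A are encoded by single genes with introns and polyadenylated mRNAs, are made throughout the cell cycle, and are exchanged into chromatin by dedicated chaperones. Most resting B cells do not divide, and the share of replacement histones among the histones made in these cells was not measured. The labels do not name the primer used for reverse transcription, so the share of stem-loop mRNA that was copied is unknown.

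Promoters of 5 members are shown because they compare a cluster gene whose signal separated the genotypes (H3c4) with one that did not (H1f2), an H2B gene with the octamer, and both genes of H3.3, of which one separated the genotypes (H3f3a) and one did not (H3f3b). Each window runs from 250 bases before to 50 bases after the annotated start, 5′ to 3′ on the gene's strand, from RefSeq on GRCm38.p6: chr13:23738557-23738856 on the plus strand for H1f2, chr13:23575513-23575812 on the plus strand for H3c4, chr3:96269450-96269749 on the plus strand for H2bc18, chr1:180813556-180813855 on the minus strand for H3f3a and chr11:116024455-116024754 on the minus strand for H3f3b. Capitals mark the CCAAT box (CCAAT), the TATA box (TATAAA) and the octamer (ATTTGCAT), on either strand.
H1f2: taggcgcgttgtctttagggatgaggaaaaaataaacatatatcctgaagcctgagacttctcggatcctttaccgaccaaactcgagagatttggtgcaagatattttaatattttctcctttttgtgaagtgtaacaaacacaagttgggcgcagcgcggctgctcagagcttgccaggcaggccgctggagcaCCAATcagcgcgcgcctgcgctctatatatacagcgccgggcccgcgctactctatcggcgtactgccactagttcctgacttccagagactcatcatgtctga
H3c4: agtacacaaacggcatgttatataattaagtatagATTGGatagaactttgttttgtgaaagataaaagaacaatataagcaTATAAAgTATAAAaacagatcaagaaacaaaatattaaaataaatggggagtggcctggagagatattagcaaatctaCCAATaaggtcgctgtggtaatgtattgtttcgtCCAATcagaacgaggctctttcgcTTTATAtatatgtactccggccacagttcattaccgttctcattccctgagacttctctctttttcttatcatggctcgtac
H2bc18: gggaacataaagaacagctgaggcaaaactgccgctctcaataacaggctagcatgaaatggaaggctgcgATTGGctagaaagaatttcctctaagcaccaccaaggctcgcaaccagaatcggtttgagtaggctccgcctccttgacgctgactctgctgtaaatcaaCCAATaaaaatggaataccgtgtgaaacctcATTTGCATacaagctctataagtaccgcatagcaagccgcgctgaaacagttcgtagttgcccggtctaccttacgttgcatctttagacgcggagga
H3f3a: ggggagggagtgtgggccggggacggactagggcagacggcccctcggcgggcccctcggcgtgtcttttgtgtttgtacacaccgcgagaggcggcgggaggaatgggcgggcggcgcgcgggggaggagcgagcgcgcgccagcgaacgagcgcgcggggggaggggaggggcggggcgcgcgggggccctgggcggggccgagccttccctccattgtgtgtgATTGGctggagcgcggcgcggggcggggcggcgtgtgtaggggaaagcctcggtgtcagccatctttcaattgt
H3f3b: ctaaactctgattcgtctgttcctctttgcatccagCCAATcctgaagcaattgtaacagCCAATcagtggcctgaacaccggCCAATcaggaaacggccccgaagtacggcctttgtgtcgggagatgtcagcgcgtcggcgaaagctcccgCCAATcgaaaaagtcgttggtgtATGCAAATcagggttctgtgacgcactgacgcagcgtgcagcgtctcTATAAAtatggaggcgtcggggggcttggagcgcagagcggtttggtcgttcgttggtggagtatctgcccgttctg

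A promoter was listed for 19 of the 23 members, and H3c7, H2bc21, H2ax and Macroh2a3 had no entry. CCAAT, the site of the factor NF-Y, was in 16 of the 19 (84.2%), against 37.4% of all 32851 promoters of the same length. The octamer, which the ubiquitous factor Oct-1 and the lymphoid factor Oct-2 read together with OCA-B and which is a long-known element of H2B promoters, was in 3 of 19 (15.8%) against 1.74%: H2bc18 at 48 bases before the start, H3f3b at 74 and H2aw at 119. TATAAA was in 5 of 19 (26.3%) against 13.6%, and 3 of those matches were in H3c4. The E2F motif TTTNGCGC was in 1 of 19 promoters, H2bc22 (5.26% against 1.38%). The interferon-stimulated response element was in 0 of 19, against 3.44% of all promoters. The Ets-IRF composite element, to which Irf4 binds with PU.1, was in H1f6 and H3c11, 2 of 19 (10.5% against 2.72%). Both strands were searched, the composite and the response element can overlap each other, and a match is a description of letters, not of a bound site.

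RNA was measured in 4 wild-type (irf4+/+) and 4 Irf4 null (irf4-/-) arrays. Both groups were B cells of 12-week-old C57BL/6 littermates, enriched from spleen with magnetic beads that remove other cells, and 6 µg of total RNA was labelled for each array. The labels give neither the construction of the null allele nor whether every array is a separate mouse, and p-values therefore cover the spread among arrays, part of which may be technical. Signals are on a linear scale, with a trimmed mean of 500.003 and a median of 76.9 to 92.2 on each array, and their number limits the precision. Irf4 read 1720 to 2341 in wild type and 244 to 315 in Irf4 null. The B cell marker Cd79b read 19326 to 24861, and Ms4a1 was also bright on every array. Of 8 tested B cell markers, 3 were positive and 5 negative, 0 were called higher and 1 lower. The lower one was Fcer2a, at 6431 to 7880 in wild type and 2486 to 4402 in Irf4 null (log2 -1.17 ± 0.17, limma, adjusted p = 0.0030). Xist, the RNA of the inactive X chromosome, was high (17119 to 19652) for wild-type arrays 1, 3 and 4 together with Irf4 null array 1, and low (49.2 to 94.8) on the other four, which are wild-type array 2 and the remaining 3 of the Irf4 null group. Of 68 markers of other blood cells, 66 were bright enough to test, 4 were higher and 0 lower in Irf4 null, 25 differed with Xist, and 2 were dim on every array. Their mean log2 signal was 7.76 to 9.09 in wild type and 8.13 to 9.43 in Irf4 null, and 7.76 to 8.13 on the Xist-high against 8.67 to 9.43 on the Xist-low arrays. Over all tested genes 2.67% were higher in Irf4 null and 1.7% lower, and 3.18% differed with Xist.

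The comparison of genotypes asks which histone RNAs differ between the preparations. One canonical H3 gene of the chromosome 13 cluster, H3c7, was 2.26-fold lower in Irf4 null B cells (on the scale of signal + 16, which makes folds of dim genes smaller). Of the 18 members bright enough to test, 1 fell, 0 rose and 17 did not pass (limma, adjusted p below 0.05 over all probe sets), against 1.7% of all 11798 tested genes lower, 2.67% higher and 4.37% in either direction. The share of members that fell, 5.56%, rests on that single gene. At an unadjusted p below 0.05 the count was 3 lower and 0 higher, where 8.48% of all genes were lower and 11.9% higher. The same 3 genes, H3c7, H3c4 and the replacement gene H3f3a, had all 4 Irf4 null arrays below all 4 wild-type arrays, 16.7% of the members against 5.71% of all genes (7.13% above and 12.8% in either direction). Signs over the 18 members were balanced, 9 positive and 9 negative, with a median log2 fold change (Irf4 null minus wild type) of -0.019 against 0.025 over all genes. In RNA of a whole preparation, fewer cells of a type cannot be told from less RNA per cell.

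**Figure D1:**
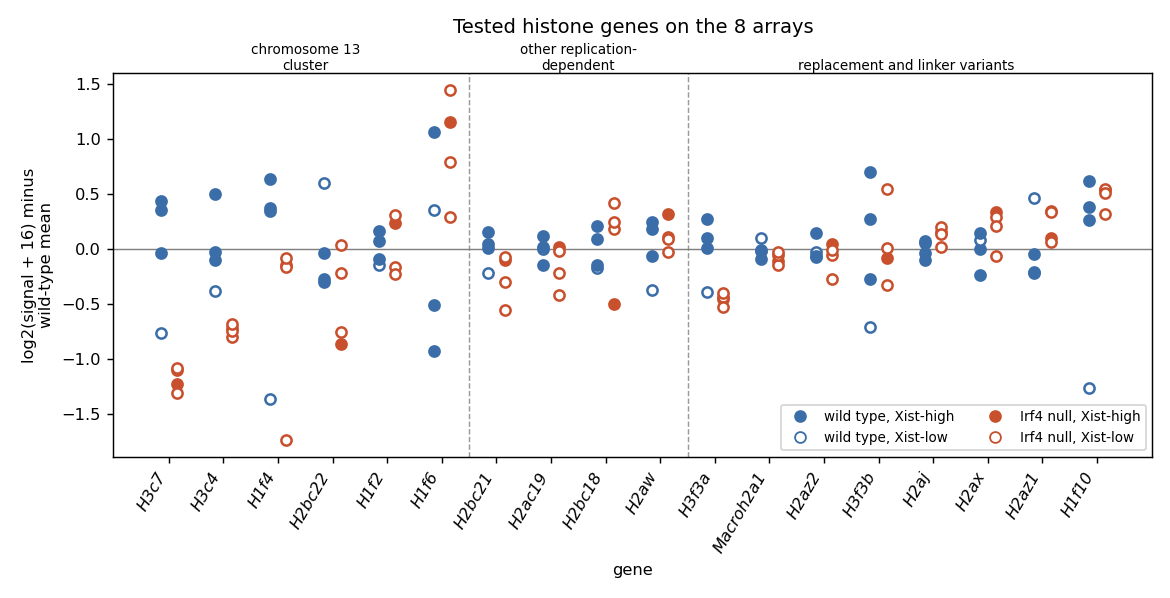
Each point is 1 array of 1 tested histone gene; the vertical axis gives log2(signal + 16) minus the mean of the 4 wild-type arrays, and genes are grouped by class along the horizontal axis. Blue points are wild type, red points Irf4 null, and open points the Xist-low arrays; H3c7, H3c4 and H3f3a are the 3 genes whose red points all lie below the blue ones.

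H3c7 and H3c4 both encode the canonical, replication-dependent histone H3. H3c7 read 317, 185, 444 and 419 on the wild-type arrays and 129, 122, 143 and 145 on the Irf4 null arrays. The groups did not overlap, and wild-type array 2, the Xist-low one, lay nearest to the Irf4 null arrays. Its mean went from 341 ± 118 to 135 ± 11.2 (SD, n = 4 and 4), so that log2 signal differed by -1.18 ± 0.24 (limma, with its SE; adjusted p = 0.0213; 95% interval -1.70 to -0.66). H3c4 read 187, 151, 293 and 197 on the wild-type arrays and 116, 109, 114 and 120 on the Irf4 null arrays, again without overlap and again with wild-type array 2 lowest of its group. Its log2 fold change of -0.73 ± 0.19 did not pass (adjusted p = 0.0589; 95% interval -1.15 to -0.32). For both genes the 4 Irf4 null arrays lay close together, with SDs of 11.2 and 4.44, while the wild-type arrays had SDs of 118 and 60.4. A further H3 gene of the cluster, H3c11, was too dim to test, at 4.98 to 52.7 in wild type and 6.59 to 81.1 in Irf4 null.

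The call of H3c7 depended on the arrays and settings used, while its sign stayed negative. With Xist as a term its log2 fold change was -0.94 (limma, adjusted p = 0.0686). It was -1.48 within the Xist-high arrays (3 wild type and 1 Irf4 null) and -0.40 within the Xist-low arrays (1 wild type and 3 Irf4 null); each of these values sets a single array against 3, and no p is given for them. With the mean of the other-cell markers as a covariate it was -0.89 (adjusted p = 0.0973), and without a variance trend in the fit the adjusted p was 0.0510. The call ended without wild-type array 1 (-1.19, adjusted p = 0.0625), 3 (-1.03, 0.0641) or 4 (-1.06, 0.0760) and without Irf4 null array 1 (-1.16, 0.0517), 2 (-1.13, 0.0675) or 4 (-1.21, 0.0586). In these fits with 1 array left out, 0.79% to 1.51% of all genes were lower, against 1.7% with every array. Without wild-type array 2 the fold change was -1.43 (adjusted p = 0.0004), and H3c4 passed as well, at -0.86 (adjusted p = 0.0163). The wild-type arrays left in that fit were all Xist-high, and 3.72% of all genes were lower, against 1.7% with every array. The part of Xist class and of other cells in the difference of H3c7 was not tested beyond these fits.

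**Figure D2:**
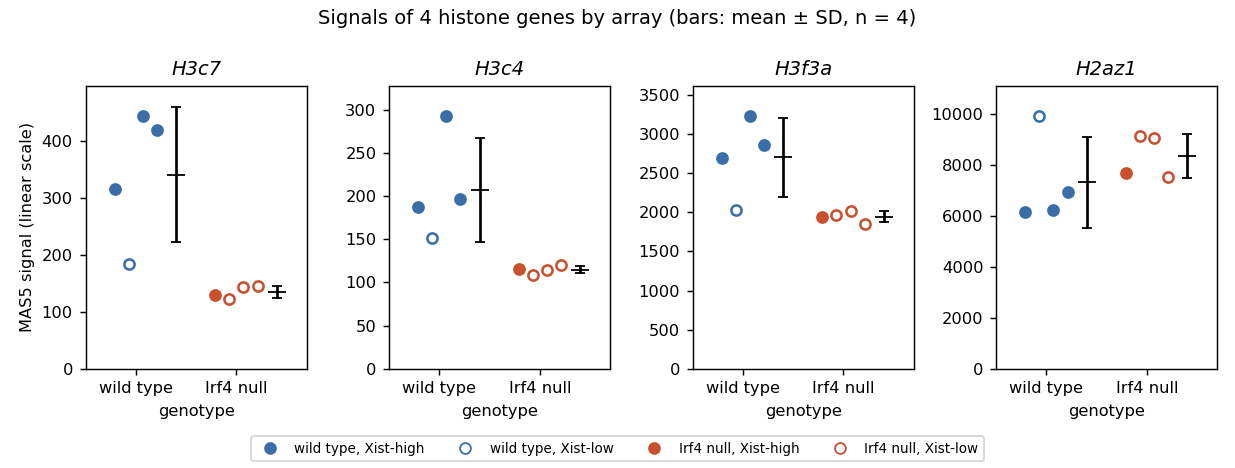
Signals on a linear scale (vertical axes, from 0) of H3c7, H3c4, H3f3a and H2az1 on each array of both genotypes (horizontal axes), with the mean ± SD of 4 arrays beside each group. Wild-type array 2, the open blue point, is the lowest wild-type value of H3c7, H3c4 and H3f3a and the highest of H2az1.

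Linker histones of the cluster gave no call. H1f2, the gene of H1.2, read 2334, 2001, 2486 and 2081 on the wild-type arrays and 2624, 1975, 2745 and 1898 on the Irf4 null arrays. The groups overlapped throughout, and the difference of 0.040 ± 0.13 (adjusted p = 0.919) has a 95% interval of -0.25 to 0.33, within 1.25-fold either way. Its other tested probe set gave 0.14. H1f6, the H1t gene expressed in testis, read 14.3, 39.0, 74.0 and 6.67 on the wild-type arrays and 79.7, 100.7, 58.2 and 36.6 on the Irf4 null arrays. These signals lie near the dim limit of 42.9 and overlap between genotypes, and the difference of 0.92 ± 0.43 did not pass (adjusted p = 0.304). H1f4, the gene of H1.4, was as dim, with 12.1 to 96.7 in wild type and 5.81 to 52.5 in Irf4 null (-0.53 ± 0.49, adjusted p = 0.652). The core histone gene H2bc22, an H2B gene, read 113, 184, 91.6 and 93.7 on the wild-type arrays and 56.7, 120, 97.6 and 62.7 on the Irf4 null arrays. Its groups overlapped, with the highest value on wild-type array 2, and its difference of -0.45 ± 0.27 did not pass (adjusted p = 0.443). It was -0.25 without that array, -0.79 with Xist as a term and -0.89 with the mean of the other-cell markers as a covariate (adjusted p = 0.0766), and it passed in none of these.

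As a group, the 6 tested cluster members had a median log2 fold change of -0.49, against 0.063 for the 12 tested members outside the cluster. Without H3c4 and H3c7, the members with the most negative fold changes, the cluster median was -0.20, over 4 genes of which 2 were positive. Leaving out the most negative members raises a median in any case. By rank, the cluster median of -0.49 falls between H1f4 (-0.53 ± 0.49) and H2bc22 (-0.45 ± 0.27), and neither gene passed. The median SE of the tested members was 0.25 in the cluster and 0.12 outside it. Per array, the median of the 6 genes relative to the wild-type mean was -0.032, -0.26, 0.39 and -0.060 on the wild-type arrays and -0.43, -0.17, -0.15 and -0.71 on the Irf4 null arrays. These ranges overlap, since the second wild-type array lay below Irf4 null arrays 2 and 3. Outside the cluster the medians ran from -0.095 to 0.032 in wild type and from -0.047 to 0.088 in Irf4 null. In the gene order of the RefSeq table all 7 cluster members lie before Irf4, with 62 protein-coding genes between H1f2 and Irf4, 71 for H3c4, 79 for H3c7 and 141 for H3c11. Among the 62, 19 were tested, with a median of -0.050. Of these, 2 were higher (Dusp22 at 1.11 and Gmnn at 0.72) and 3 lower (Sox4 at -0.94, Carmil1 at -0.83 and Cmah at -0.88). Of all 11798 tested genes, 2.67% were higher and 1.7% lower. Of 4 tested genes without a histone name among the cluster itself 0 passed. The median of all 441 tested genes of chromosome 13 outside the histone set was 0.016, with 19 higher and 14 lower. These 441 include Irf4 and the neighbouring genes just described. Macroh2a1 lies on the same chromosome on the other side of Irf4, with 193 protein-coding genes between them.

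**Figure D3:**
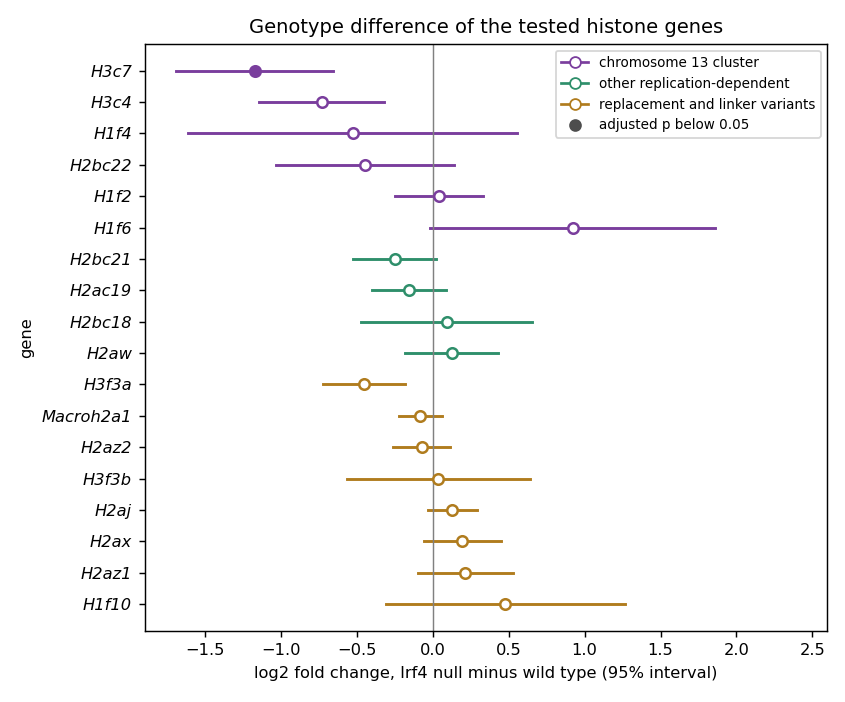
The log2 fold change of each tested histone gene, Irf4 null minus wild type, on the horizontal axis with its 95% interval, with genes on the vertical axis coloured by class. The filled point, H3c7 at -1.18, is the member that passed the adjusted threshold; the intervals of H3c4 and H3f3a also lie below 0.

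In the smaller replication-dependent clusters 0 of 4 genes passed, and 0 had an unadjusted p below 0.05 (limma). H2bc21, an H2B gene, read 1118, 928, 1087 and 1205 on the wild-type arrays and 1011, 875, 733 and 1028 on the Irf4 null arrays. The groups overlapped, and the difference was -0.25 ± 0.12 (adjusted p = 0.338), with -0.19 from its second probe set. H2ac19, an H2A gene, read 1379, 1272, 1289 and 1151 on the wild-type arrays and 1291, 948, 1253 and 1093 on the Irf4 null arrays (-0.16 ± 0.11, adjusted p = 0.526). Its second probe set had the opposite sign, 0.077, so no direction is given for it. H2aw, another H2A gene, read 1154, 743, 924 and 1104 on the wild-type arrays and 1210, 1048, 949 and 1031 on the Irf4 null arrays. Here the wild-type range enclosed all but one of the Irf4 null values, and the difference was 0.12 ± 0.14 (adjusted p = 0.716). The H2B gene H2bc18 was dim, at 36.1 to 51.9 and 25.5 to 62.4 (0.090 ± 0.25, adjusted p = 0.905).

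Among the replacement variants, H3f3a and H3f3b encode the same H3.3 protein, which the Hira complex places in transcribed chromatin. H3f3a read 2697, 2029, 3233 and 2867 on the wild-type arrays and 1944, 1968, 2016 and 1854 on the Irf4 null arrays. All Irf4 null values were below all wild-type values, but wild-type array 2 exceeded Irf4 null array 3 only narrowly. The mean went from 2707 ± 504 to 1946 ± 67.9 (SD), a log2 fold change of -0.45 ± 0.12 that did not pass (adjusted p = 0.0761; 95% interval -0.73 to -0.18). It was -0.32 with Xist as a term (adjusted p = 0.243), and -0.59 within the Xist-high and -0.06 within the Xist-low arrays, each again with a single array in 1 genotype. It passed without wild-type array 2 (-0.58, adjusted p = 0.00206), where 3.72% of all genes were lower, against 1.7% with every array. H3f3b read 3192, 1615, 4298 and 2180 on the wild-type arrays and 2488, 2651, 3854 and 2104 on the Irf4 null arrays. Both groups of H3f3b spread widely and overlapped, and the difference of 0.036 ± 0.27 (adjusted p = 0.967) has an interval of -0.57 to 0.64, within which the value of H3f3a also lies. The difference between these genes was not tested.

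H2A.Z, which marks the nucleosomes beside transcription start sites, is encoded by H2az1 and H2az2. H2az1 read 6154, 9908, 6216 and 6934 on the wild-type arrays and 7668, 9111, 9052 and 7508 on the Irf4 null arrays. Its highest value was on wild-type array 2, so the groups overlapped, and the difference of 0.21 ± 0.14 did not pass (adjusted p = 0.505). Without that array it rose by 0.37 (adjusted p = 0.0343), and with Xist as a term the difference was 0.019 (adjusted p = 0.968). Over all genes, 838 of 11788 were higher without wild-type array 2, against 315 of 11798 with it. The Xist-high arrays were lower than the Xist-low ones by 0.39 (log2, -0.39 ± 0.12), which did not pass either (adjusted p = 0.151). Both H2az1 probe sets gave the same sign, 0.21 and 0.16. H2az2 read 4473, 4625, 4506 and 5209 on the wild-type arrays and 4840, 4517, 4660 and 3879 on the Irf4 null arrays. Its difference of -0.074 ± 0.086 (adjusted p = 0.726) has an interval within 1.20-fold either way, and its second, dimmer probe set gave 0.16.

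H2ax, the variant phosphorylated at DNA breaks, read 1084, 1149, 1196 and 915 on the wild-type arrays and 1367, 1324, 1251 and 1033 on the Irf4 null arrays. Of the Irf4 null arrays 3 exceeded every wild-type array, and the difference was 0.19 ± 0.11 (adjusted p = 0.443). H2aj, an H2A variant gene, read 2406, 2721, 2519 and 2676 on the wild-type arrays and 2871, 2609, 2965 and 2845 on the Irf4 null arrays. Here too 3 Irf4 null arrays lay above all wild-type arrays, with a difference of 0.13 ± 0.074 (adjusted p = 0.420). Macroh2a1 encodes macroH2A1, a variant with a large added domain that is enriched on the inactive X chromosome. It read 6724, 7294, 6763 and 6400 on the wild-type arrays and 6283, 6164, 6524 and 6649 on the Irf4 null arrays, a difference of -0.084 ± 0.065 (adjusted p = 0.572) with an interval within 1.17-fold either way. Its Xist-high minus Xist-low difference was -0.087 ± 0.074 (adjusted p = 0.702), and with Xist as the contrast 0 of the 18 members passed, against 3.18% of all genes. The linker gene H1f10 read 82.8, 18.4, 111 and 91.3 on the wild-type arrays and 104, 104, 101 and 87.0 on the Irf4 null arrays. Wild-type array 2 stood far below every other array, and the difference was 0.48 ± 0.36 (adjusted p = 0.559).

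Of all 18 tested members, 9 had 95% intervals within 1.5-fold in either direction and 12 within 2-fold. The other 5 members had means below the dim limit and did not enter the test: besides H3c11, these were the germ-cell linker genes H1f7 (spermatid) and H1f8 (oocyte), Macroh2a2 and Macroh2a3. H1f8 read at most 7.27 on any array, and H1f7 and Macroh2a2 overlapped between genotypes. Macroh2a3 read 29.7, 12.6, 13.5 and 11.1 on the wild-type arrays and 54.6, 45.9, 44.5 and 64.9 on the Irf4 null arrays. Its groups did not overlap, but its second probe set (2.83 to 29.4 and 12.9 to 39.7) did. With no filter on dim probe sets all 23 members entered the test, 0 were higher, and H3c7 alone was lower.

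Most histone genes share nearly the same coding sequence with close copies. The RefSeq table places 54 protein-coding histone genes in the chromosome 13 cluster, and 47 of them had no single-gene probe set. The annotation pairs 27 probe sets with several genes, among them histone genes in and outside the cluster, and these show a family and not a gene. Of these 20 were tested, 1 rose and 0 fell, against 2.01% of all probe sets higher, 1.51% lower and 3.52% in either direction. The one that rose is an H2B probe set naming 3 genes, which read 1622, 1933, 1422 and 1693 on the wild-type arrays and 2804, 1973, 2574 and 2855 on the Irf4 null arrays. The groups did not overlap, although array 2 of each genotype came close to the other group, and the log2 fold change was 0.60 ± 0.13 (limma, adjusted p = 0.0291). Over 22 alternative settings its fold change ran from 0.33 to 0.83. Those ends are the values within the Xist-low and within the Xist-high arrays, each with a single array in 1 genotype. With Xist as a term it was 0.58 (limma, adjusted p = 0.0773), and with the other-cell markers as a covariate 0.60 (0.0860). It did not pass with a common median (0.53, 0.0962) or without a variance trend (0.60, 0.0836) either. The call ended without wild-type array 1 (0.59, adjusted p = 0.0881), 3 (0.53, 0.0857) or 4 (0.61, 0.0788) and without Irf4 null array 1 (0.55, 0.0742), 3 (0.59, 0.0710) or 4 (0.54, 0.0974). The other H2B probe sets ran from -0.44 to 0.21, and 0 of them passed. Among these are both other probe sets that name the same 3 genes, at -0.22 (adjusted p = 0.703) and 0.027 (adjusted p = 0.963), so no direction is given for the genes.

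Probe sets of the H3 family stood at -0.35 to 0.057, with 0 of 4 past the threshold and 3 of 4 negative. One of these, naming 8 genes, read 291, 286, 321 and 329 on the wild-type arrays and 271, 195, 242 and 281 on the Irf4 null arrays (-0.30 ± 0.14, adjusted p = 0.290), without overlap. The other probe set naming the same 8 genes gave 0.057 ± 0.20 (limma, adjusted p = 0.923), with overlap. All 4 tested H3 probe sets name H3c7 and H3c4 among their genes. The 2 tested H4 probe sets gave -0.18 and 0.26, the 2 of H2A 0.030 and 0.32, and the 2 of H2A.Z 0.20 and 0.29. The 5 H3.3 probe sets, with signals of 7365 to 25962, had fold changes from -0.17 to 0.093 and 0 passed. One of them had all Irf4 null arrays (19132 to 22125) below all wild-type arrays (22256 to 25962), at -0.17 ± 0.071 (limma, adjusted p = 0.245). The single-gene H3f3a probe set was dimmer, at 1854 to 3233. Its fold change of -0.45 lay outside the range of the shared probe sets, and the difference between them was not tested.

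**Figure D4:**
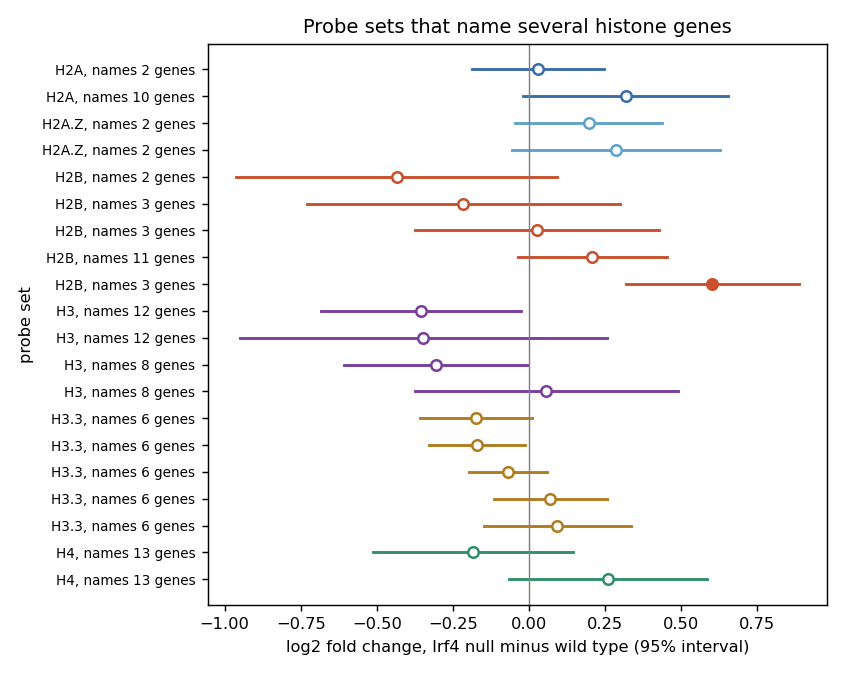
Log2 fold changes (horizontal axis, Irf4 null minus wild type, with 95% intervals) of the 20 tested probe sets that name several genes, grouped by histone family on the vertical axis. The filled H2B point at 0.60 passed the threshold, and 3 of the 4 H3 points lie below 0.

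Genes whose products process histone mRNA or carry and exchange histones gave no call. Of 19 tested genes of histone mRNA 3′ end processing and cluster transcription 0 passed (limma; 5 at an unadjusted p below 0.05), with a median log2 fold change of -0.011. Closest were the methyl-CpG binding protein gene Mbd2, at -0.32 ± 0.077 (adjusted p = 0.0502), and E2f1, an activator of S phase genes, at 0.62 ± 0.18 (adjusted p = 0.0888). Of 21 histone chaperones and importers 0 passed (6 unadjusted; median 0.035), with the acetyltransferase gene Hat1 at 0.25 ± 0.077 (adjusted p = 0.115) and Chaf1b, a subunit of chromatin assembly factor 1, at 0.34 ± 0.12 (adjusted p = 0.180). Of 12 genes of the complexes that exchange H2A.Z 0 passed (2 unadjusted, median 0.012), with Znhit1 at 0.36 ± 0.11 (adjusted p = 0.123) and Actr6 at 0.23 ± 0.096 (adjusted p = 0.252). At an unadjusted p below 0.05 (limma), 8.48% of all tested genes were lower and 11.9% higher.

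Cell cycle genes had higher medians than the histone genes. Of 27 genes of DNA replication and S phase, when clustered histones are expressed, 0 passed in limma (17 had an unadjusted p below 0.05) and 23 were positive, with a median of 0.33. The ribonucleotide reductase subunit gene Rrm2 stood at 1.03 ± 0.29 (adjusted p = 0.0874) and the thymidine kinase gene Tk1 at 0.72 ± 0.21 (adjusted p = 0.0988). Of 19 mitotic genes 1 rose, the spindle protein gene Nusap1, by 1.13 ± 0.25 (adjusted p = 0.0336), all 19 were positive, and the median was 0.86. Of the 19, 14 differed with Xist. Over all tested genes, 11.9% were higher and 8.48% lower at an unadjusted p below 0.05 (limma), and 3.18% differed with Xist. On wild-type array 2 the S phase median stood at 0.27 relative to the wild-type mean and the mitotic median at 0.95, while the median of the chromosome 13 histone genes was -0.26 there. On Irf4 null arrays the S phase medians were 0.12 to 0.47 and those of the chromosome 13 histone genes -0.71 to -0.15. These histone medians cover 6 genes, of which H2bc22 had its highest wild-type value on array 2. A shared H2A probe set naming 10 genes read 9513 to 14045 in wild type, highest on array 2, and 11388 to 18451 in Irf4 null. Its difference of 0.32 ± 0.15 did not pass (limma, adjusted p = 0.326). The shared H3 probe sets ran from -0.35 to 0.057.

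**Figure D5:**
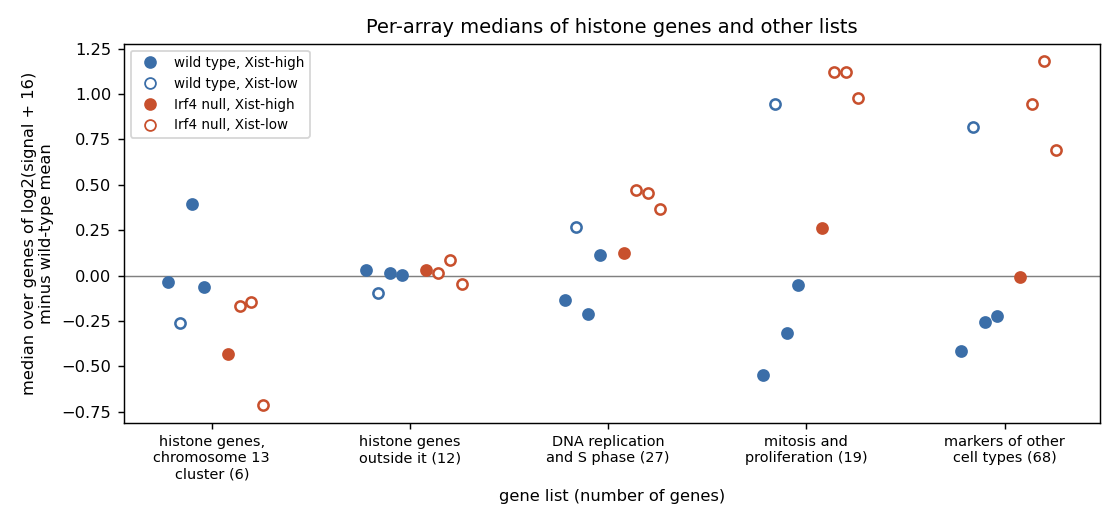
For each array (points) the median over a gene list of log2(signal + 16) minus the wild-type mean (vertical axis), for the histone genes in and outside the chromosome 13 cluster, S phase genes, mitotic genes and markers of other cell types (horizontal axis). Open points are Xist-low arrays; the open blue point sits with the open red points for the mitotic genes and the markers, and histone genes outside the cluster stay between -0.095 and 0.088.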

How the data were processed

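Per the labels' protocols, biotin-labelled cRNA of 8 samples was hybridised to Affymetrix arrays. The authors deposited linear intensity values made with MAS5, per the submitters' processing notes; no source used here names its version or scaling target. Arrays already shared a trimmed mean (2% off each end), so nothing further was normalized. The deposited table has no detection calls, so a dim signal cannot be set apart from background.

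Of 45101 probe sets, 34958 carry 1 symbol, 932 several and 9211 none in the platform annotation; 34754 were updated through the RefSeq table (GRCm38.p6), which was used for names and gene order. H2aj, H2ax and H2aw entered through older symbols. After 64 controls were left out, log2(signal + 16) was taken and the lowest 40% by mean dropped (5.88, a signal of 42.9), leaving 27022. The added 16 shrinks folds of dim genes. The genotype contrast was fitted in limma 3.58.1 under R 4.3.3 (eBayes with trend; Benjamini-Hochberg over 27022, threshold 0.05). Figures used matplotlib 3.10.9. Fits were tested on simulated data.

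Arrays over an Xist signal of 1000 were called Xist-high. Members, lists and alternatives were chosen with earlier results of these data known. Full values are given for called members, the 3 brightest of each class and the 6 smallest p not called, and from each pathway list up to 4 called genes or else the 2 smallest p; values of the other members were added after they were seen. Alternatives covered pseudocount, filter, normalization, variance model, array weights, replicate block, Xist, other-cell markers, left-out arrays, threshold and choice of probe set.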

Additional observations from a re-analysis of the deposited data

Results flagged for a closer look

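In 4 of the 46 groups of 4 arrays, 1 array lay far from the other three, where chance gives about 1 in 20. The linker gene H1f4 read 12.1 on wild-type array 2 against 75.9 to 96.7 on the other wild-type arrays, and 5.81 on Irf4 null array 4 against 48.4 to 52.5 on the others. H1f10 read 87.0 on Irf4 null array 4, where the other Irf4 null arrays lay between 101 and 104. Macroh2a3 read 29.7 on wild-type array 1 against 11.1 to 13.5 on the others. H1f4 and Macroh2a3 signals lie at or below the dim level of 42.9 on several arrays.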

How the results depend on the processing

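The count of members lower in Irf4 null, 1 in the analysis as reported, was 2 with quantile normalization, a common median or averaged probe sets, 3 with array weights, and 0 without a variance trend, within the Xist-low arrays (1 of them wild type), with Xist class as a term, with other-cell markers as a covariate, or at a threshold of 0.01. Leaving out 1 array at a time gave 0 to 3 lower and 0 to 1 higher. Over all tested genes the share lower, 1.7% as reported, also moved with the setting. It was 1.82% with quantile normalization, 1.69% with a common median, 1.89% with averaged probe sets and 3.2% with array weights. It was 0.84% without a variance trend, 1.1% with Xist class as a term and 1.11% with the marker covariate. With 1 array left out it ran from 0.79% to 3.72%. Whether member counts moved apart from these shares was not tested. The median of the chromosome 13 cluster stayed negative throughout and ran from -0.65 to -0.24 with 1 array left out. Outside the cluster it ran from -0.025 to 0.11 with 1 array left out, and was -0.019 with the lowest 60% dropped, -0.0031 with a common median (all genes -0.046), -0.013 with array weights, -0.0043 with the Xist-high term, -0.0091 within Xist-low arrays and -0.035 with the marker covariate. Signs turned for H1f2 (-0.034 with a common median, -0.0089 without wild-type array 2, -0.027 and -0.049 without Irf4 null arrays 1 and 3, and up to 0.13 with 1 array left out), H2ac19 (0.023 within Xist-high arrays, 0.077 without _x_at and _s_at probe sets), H2az2 (0.037 within Xist-high arrays, 0.041 with averaged probe sets), H2az1 (-0.22 within Xist-low arrays, -0.048 with the marker covariate) and H2aw (-0.00097 without wild-type array 2, to 0.21 with another array left out); 0 of these passed. The cause was not tested. H3c7 kept its call in 14 of 25 alternatives, from -1.48 to -0.40. Those alternatives include the fits within 1 Xist class, each with a single array in 1 genotype. With the replicate block 1 gene was lower and 0 higher, and the medians stayed at -0.49 and 0.063. Over all genes the block gave 424 higher and 248 lower, against 315 and 201 without it. Same-numbered arrays correlated at 0.24, 0.28, -0.030 and -0.081, and arrays of different number at -0.39 to 0.21. Whether the numbers mark a pairing is not settled by these values. Signal over background limits H1f4, H1f6 and H2bc18, whose mean lies at the dim limit.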
